A study of Mus musculus with 2 samples.

Results

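Cycling T cells were taken from 2 droplet libraries of mediastinal lymph node (MedLN) cells of mice with ovalbumin (OVA)-induced asthma, 1 made without and 1 with butyrate (C4). A cycling T cell had at least 2 unique molecular identifiers (UMIs, each standing for 1 captured transcript) of Cd3e, Cd3d and Cd3g together, fewer UMIs of Cd79a and Cd79b than of these, and at least 2 UMIs of Mki67 and Top2a together. The gate held 210 of the 18613 cells deposited, 124 without and 86 with butyrate. Members were split by whether Cd4 or Cd8a plus Cd8b1 UMIs were more numerous, and by the presence of a Foxp3 UMI. These genes define the cells, so their levels are descriptions and not results. All mice were wild-type C57/B6J animals of 5 to 13 weeks. They were sensitized with 50 µg OVA and alum by intraperitoneal injection on days 0 and 7, challenged with OVA intranasally on days 14 to 16 and examined on day 17. The library with butyrate came from mice that also received butyrate, and whether it was given to these mice in drinking water or by gavage is not specified. The cells of 4 mice were pooled in each library and no label ties a cell to a mouse. With 1 library for each condition there is no replicate and no test, and the 95% intervals given cover counting error only.

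A resting T cell circulates between blood and lymph nodes and enters the cell cycle after antigen, costimulation and interleukin 2. Cyclin-dependent kinases then release E2F factors, which switch on the genes for DNA synthesis in G1 and S phase, and later the kinase and spindle genes of G2 and mitosis are switched on. Lymph nodes of immunized animals hold expanding effector and T follicular helper (Tfh) cells, and Foxp3+ regulatory T (Treg) cells, which also divide in unchallenged animals.

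Sequencing gave 59176459 UMIs in 9681 cells without butyrate (median 5140 per cell) and 58381292 UMIs in 8932 cells with butyrate (median 5651). Of these, 9495 and 8605 cells had at most 10% mitochondrial UMIs and at least 200 genes. Both libraries shared 25 cell barcodes, and none of them was a cycling T cell in both. Cycling T cells were deep, with medians of 16606.5 UMIs and 3554 genes without butyrate and 19702 UMIs and 3910 genes with butyrate. T cells of the same Cd3 and Cd79 gate without a Mki67 or Top2a UMI, called other T cells here, numbered 4306 and 3802 and had medians of 5680 and 6698 UMIs. A cell with more RNA reaches 2 UMIs of any gene more easily, which bears on every share below. All expression levels below are CPM (UMIs of a gene scaled to a common total) of the summed cells, that is, shares of RNA.

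The cut of 2 UMIs was low. Without butyrate 177 T cells had 1 Mki67 or Top2a UMI, 47 had 2 and 6 had 3, while with butyrate these numbers were 159, 26 and 10. The members' highest values were 119 and 174 UMIs. The label was checked with genes outside the rule, a list of 34 genes of G1 and S phase and a list of 38 genes of G2 and mitosis. Members with 3 or more UMIs had medians of 50.2 G1/S and 94.1 G2/M list UMIs per 10000 without butyrate, and 49.5 and 70.2 with butyrate. Members with exactly 2 UMIs had medians of only 5.43 and 6.62 without and 5.82 and 6.91 with butyrate. T cells with 1 UMI stood at 5.14 and 6.76 without and 4.92 and 5.47 with butyrate, and other T cells at 4.2 and 5.31 and at 4.37 and 4.90. The summed level of both lists exceeded the 99th percentile of other T cells in 70 of 77 and 50 of 60 members with 3 or more UMIs. It did so in 6 of 47 and 5 of 26 members with exactly 2 UMIs. For most members with 2 UMIs the data therefore went against the label, and of all members 76 (61.3%) without and 55 (64.0%) with butyrate carried the list signal. The gate with Cdk1, Birc5, Ccna2 and Ube2c in place of Mki67 and Top2a held 91 and 65 T cells, of which 73 and 50 were members. These shared cells were 58.9% and 58.1% of the members, and 80.2% and 76.9% of the cells of the other gate.

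**Figure D1:**
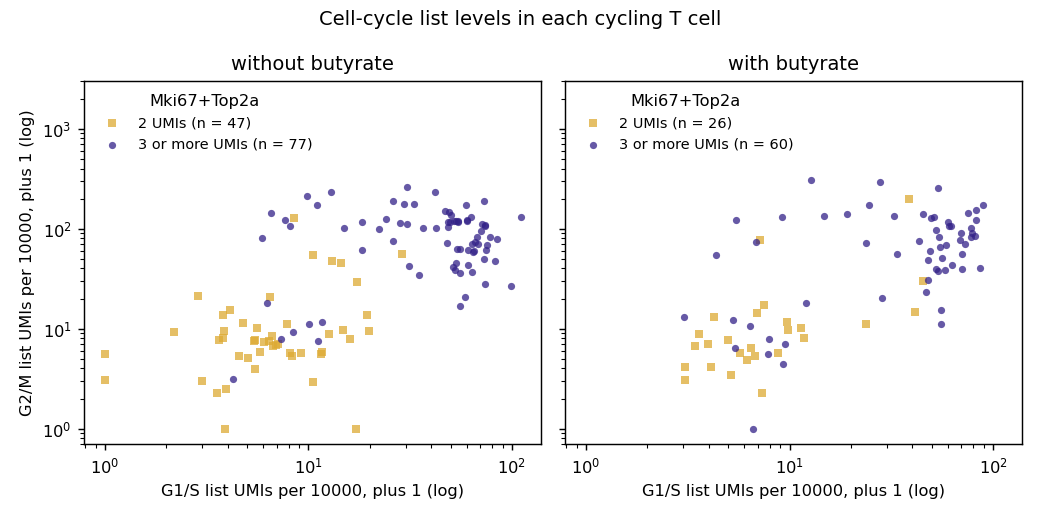
Per-cell UMIs of the G1/S list (horizontal) and of the G2/M list (vertical), each per 10000 UMIs plus 1 on log axes, in cycling T cells of both libraries, with members of exactly 2 Mki67 and Top2a UMIs marked apart from those with 3 or more. Most members with 3 or more UMIs lie above the 99th percentile of other T cells for both lists together (70 of 77 without and 50 of 60 with butyrate), and most members with 2 UMIs lie near the low corner.

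T cell identity was read from the 7 T cell markers outside the rule, since the 3 Cd3 genes were fixed by it. All 7 were detected in both libraries. Trbc2, a constant segment of the T cell receptor β chain, was the most abundant of them at 1585 and 1726 CPM, in 123 of 124 and 84 of 86 members. Trac, the constant segment of the α chain, stood at 582 and 576.5 CPM against 557 and 557 CPM in other T cells, and the kinase Lck at 269 and 264 CPM against 397.5 and 403 CPM. The whole list of 10 summed to 5601 and 5512 CPM, against 6388 and 6383 CPM in other T cells. Of the 9 B cell markers, Cd79a and Cd79b were limited by the rule. The other 7 were all detected, at a summed 427 and 290 CPM, led by Ighm with 331.5 and 259.8 CPM. In other B cells these 7 summed to 6386 and 6642 CPM, and in other T cells to 332 and 302 CPM. Other B cells were those with at least 2 Cd79a and Cd79b UMIs together and no Cd3, Mki67 or Top2a UMI. B cells with a Cd3 UMI were left out, so levels of T cell genes in other B cells can understate the background. Of the members, 8 without and 1 with butyrate had over 5 Cd79a and Cd79b UMIs. Among the 124 and 86 members, 10 (8.07%) and 9 (10.5%) ranked among the likeliest doublets, against 4.02% and 3.39% of other T cells. Plasma cell markers summed to 139 CPM without and 2.0 CPM with butyrate, led by Jchain without butyrate, and Tnfrsf17 was at 0 in both. Without butyrate 338 Jchain UMIs lay in CD8 members and 3 in CD4 members, so the values of CD8 members without butyrate include this RNA. Myeloid and dendritic markers summed to 65.8 and 15.5 CPM, led by Lyz2 at 29.5 CPM without butyrate and by Itgax at 6.98 CPM with it. Xcr1 and Siglech were at 0 in both libraries, Flt3 at 0 without butyrate and Csf1r at 0 with it. Natural killer cell markers summed to 43.7 and 59.3 CPM, of which Eomes, which T cells also express, made 35.4 and 51.9 CPM. Klra8 had 13 UMIs in 1 cell without butyrate, Klrb1c 8 and 5 UMIs in 3 cells each, and Ncr1 10 UMIs in 2 cells with butyrate. Ncr1 was at 0 without and Klra8 at 0 with butyrate. The summed γδ T cell list was 12.2 and 33.4 CPM, led by Trdc. Erythroid markers summed to 0.788 and 6.48 CPM, led by Hba-a1 without and Hbb-bs with butyrate.

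Cycling T cells were 2.69% of T cells without butyrate (124 of 4607, exact binomial interval 2.24 to 3.20%) and 2.13% with butyrate (86 of 4047, 1.70 to 2.62%). The log2 ratio of these shares with over without butyrate was -0.34, and its interval (-0.75 to 0.07) included 0. Members with the list signal were 1.65% and 1.36% of T cells (log2 ratio -0.28), and those with 3 or more UMIs 1.67% and 1.48% (-0.17). A UMI count of 2 depends on depth. After each cell was thinned to 2000 UMIs, 35 and 25 T cells passed, 0.830% and 0.672%, with a log2 ratio of -0.30. Cycling B cells, defined by the same Mki67 and Top2a cut, were 2.82% of 4745 B cells without and 1.63% of 4409 B cells with butyrate, with a log2 ratio of -0.79 (interval -1.22 to -0.37).

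The share of cells in the gate differed more among T cell subsets than between libraries. CD4 T cells were in the gate at 4.15% (49 of 1182) without and 3.92% (40 of 1021) with butyrate. CD8 T cells were in the gate at 2.34% (52 of 2226) without and 1.58% (33 of 2088) with butyrate, with a log2 ratio of -0.56 (interval -1.24 to 0.09), but counting only members with the list signal the shares were 0.943% and 0.958%. Thinned to 2000 UMIs, 4 of 1826 and 8 of 1753 CD8 T cells passed, with a log2 ratio of 1.06 (interval -0.84 to 3.24), so the direction turned. Of thinned CD4 T cells 11 of 562 and 5 of 441 passed, with a log2 ratio of -0.79 (interval -2.66 to 0.85). T cells with neither coreceptor ahead were in the gate at 1.92% (23 of 1199) and 1.39% (13 of 938). Within CD4 T cells, those with a Foxp3 UMI had the largest share in the gate, 19.4% without (21 of 108, interval 12.5 to 28.2%) and 16% with butyrate (16 of 100, interval 9.43 to 24.7%). Foxp3- CD4 T cells were in the gate at 2.61% in both libraries, with 28 of 1074 and 24 of 921 cells. All 3 features of this comparison need a UMI, and Foxp3+ CD4 members were the deepest, with medians of 25119 and 33837 UMIs against 4512 and 5438 in Foxp3+ CD4 T cells without Mki67 and Top2a. The 21 cells without butyrate include 1 with macrophage genes, described below, and without it the share was 18.7% (20 of 107, interval 11.8 to 27.4%). When cells were thinned before the gate was applied, 1 of 27 and 1 of 29 Foxp3+ CD4 T cells passed, 3.70% and 3.45%, which is too few cells to compare. With 3 or more UMIs of Mki67 and Top2a required, the shares of Foxp3+ CD4 T cells were 17.6% and 16%, those of Foxp3- CD4 T cells 1.86% and 2.06%, and those of CD8 T cells 1.03% and 0.958%. With no Cd79a or Cd79b UMI allowed, the shares of Foxp3+ CD4 T cells fell to 13.7% (10 of 73) and 6.94% (5 of 72). Those of Foxp3- CD4 T cells were then 1.81% and 1.59%.

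**Figure D2:**
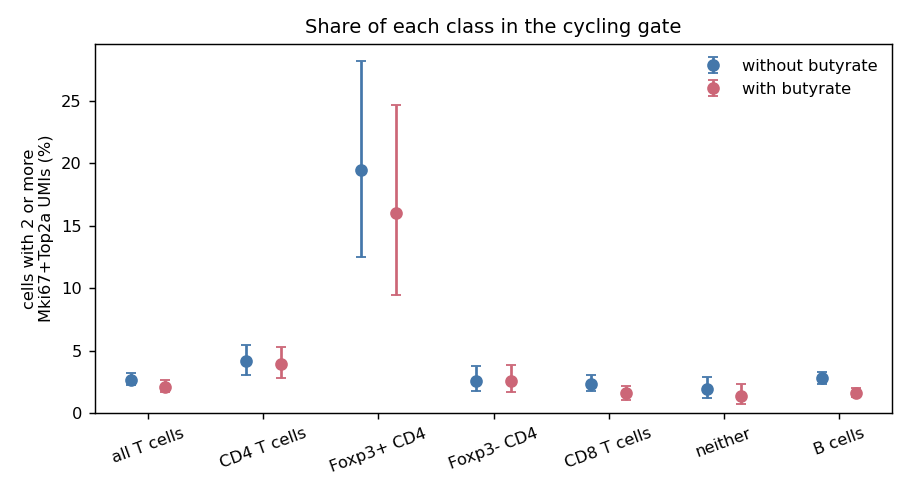
Percent of each class of cells that met the Mki67 and Top2a cut, without and with butyrate, with 95% exact binomial intervals that cover counting error only. Foxp3+ CD4 T cells had the highest share in both libraries (19.4% and 16%), and the intervals of both libraries overlap for every T cell class shown.

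At the cut of 2 UMIs, CD4 and CD8 members were about as numerous. Of the 124 members without butyrate, 49 (39.5%) were CD4, 52 (41.9%) CD8 and 23 neither. Of the 86 members with butyrate, 40 (46.5%) were CD4, 33 (38.4%) CD8 and 13 neither. The log2 ratios of these shares were 0.24 for CD4 (interval -0.40 to 0.87) and -0.13 for CD8 (-0.80 to 0.53). CD8 members held more cells just inside the cut. Exactly 2 UMIs were found in 29 of 52 and 13 of 33 CD8 members, against 10 of 49 and 5 of 40 CD4 members. The list signal was present in 40.4% and 60.6% of CD8 members and in 83.7% and 75% of CD4 members. CD4 members were thus more numerous among those with the list signal, 41 against 21 CD8 members without and 30 against 20 with butyrate. Restricted to members with the list signal, 21 of 2226 CD8 T cells without and 20 of 2088 with butyrate were in the gate (0.943% and 0.958%), and the log2 ratio of the share was 0.02.

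More members held more G2/M than G1/S list UMIs than the reverse, 81 against 36 without and 52 against 28 with butyrate, but other T cells did too, with 2237 against 1441 and 1806 against 1485 cells, so these counts do not place members in a phase. Median levels of all members were 18.6 G1/S and 45.4 G2/M UMIs per 10000 without and 27.2 and 38.9 with butyrate. CD4 members stood at 41.5 and 98.0 without and at 54.0 and 69.8 with butyrate, so the G1/S median was higher and the G2/M median lower with butyrate. CD8 members stood at 10.3 and 8.66 without and at 10.3 and 29.4 with butyrate. Cycling B cells had medians of 17.6 and 36.3 without and 16.7 and 38.9 with butyrate.

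Against other T cells, nearly all tested genes of the G1/S and G2/M lists were at least 2-fold higher. This contrast is a description, because the same cells were chosen by Mki67 and Top2a. Of 9770 genes that reached 50 UMIs in the sums compared in each library, 649 (6.64%) were at least 2-fold higher and 95 (0.972%) at least 2-fold lower in both libraries, on the scale of log2(CPM + 10). The median log2 ratio of all these genes was 0.09 in each library. All 34 G1/S list genes were at least 2-fold higher in both libraries, with medians of 2.22 and 2.30. Rrm2, the small subunit of the enzyme that makes deoxyribonucleotides, stood at 223 and 227 CPM against 1.37 and 1.07 CPM in other T cells. Tyms, which makes thymidylate, had 186 and 188 CPM against 6.17 and 5.80. The replicative helicase subunit Mcm5 had 150 and 150 CPM against 12 and 14.4. Of 33 G2/M genes tested in both, 32 were at least 2-fold higher, with medians of 3.30 and 3.26, and the exception was the condensin subunit Smc4 at 0.55 and 0.64.

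By the rule for naming genes, the 10 genes furthest above other T cells were the histone genes Hist1h1b, Hist1h2ap and Hist1h2ae, the PCNA partner Pclaf, the microtubule regulator Stmn1, the reductase subunit Rrm2 and the mitotic genes Birc5, Ube2c, Cdca8 and Cenpf. Hist1h1b, a linker histone gene, led with 1328 and 1160 CPM against 4.12 and 4.18 CPM, log2 ratios of 6.57 and 6.37. Histone genes of 1 cluster have near-identical copies between which reads can be divided, so their levels are uncertain gene by gene. Birc5 (survivin) had 413 and 381 CPM against 1.41 and 1.92 CPM, log2 ratios of 5.21 and 5.04, which became 7.42 and 7.03 with 1 CPM in place of 10 added to each level. Such ratios against levels near 0 depend on the added value. Ube2c, the ubiquitin-conjugating enzyme of the anaphase-promoting complex, had log2 ratios of 5.06 and 4.86. Levels are not corrected for gene length, so they are compared between cells and not between genes.

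G2/M genes are known to be repressed in resting cells through a CHR element, often with CCAAT boxes upstream of it, while many G1/S genes carry E2F sites. The promoters of the 5 cell cycle list genes among these 10 are shown, to show what the promoters of genes that are high together in cycling cells hold. Each is given from 250 bases before to 50 after the RefSeq transcription start (GRCm38.p6), 5′ to 3′ along the gene. The capitals mark 3 motifs on either strand. The CHR was searched as TTTGAA and as TTCGAA. The CCAAT box was searched by these 5 letters alone. The E2F motif was searched as TTCCCGC and in another known form, TTGGCGC. Neighbouring motifs can touch or overlap.
Ube2c: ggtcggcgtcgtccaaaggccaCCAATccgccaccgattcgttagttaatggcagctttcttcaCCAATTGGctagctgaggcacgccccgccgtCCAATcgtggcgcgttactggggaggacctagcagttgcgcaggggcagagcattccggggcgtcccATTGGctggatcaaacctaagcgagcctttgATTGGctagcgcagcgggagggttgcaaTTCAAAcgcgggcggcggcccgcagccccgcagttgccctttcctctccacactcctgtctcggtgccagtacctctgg
Cdca8: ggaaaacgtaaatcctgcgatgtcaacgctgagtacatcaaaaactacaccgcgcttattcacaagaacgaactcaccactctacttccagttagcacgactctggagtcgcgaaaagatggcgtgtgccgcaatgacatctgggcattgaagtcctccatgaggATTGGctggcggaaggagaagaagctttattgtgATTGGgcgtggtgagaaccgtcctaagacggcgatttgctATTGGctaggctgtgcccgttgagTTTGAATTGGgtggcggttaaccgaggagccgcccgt
Cenpf: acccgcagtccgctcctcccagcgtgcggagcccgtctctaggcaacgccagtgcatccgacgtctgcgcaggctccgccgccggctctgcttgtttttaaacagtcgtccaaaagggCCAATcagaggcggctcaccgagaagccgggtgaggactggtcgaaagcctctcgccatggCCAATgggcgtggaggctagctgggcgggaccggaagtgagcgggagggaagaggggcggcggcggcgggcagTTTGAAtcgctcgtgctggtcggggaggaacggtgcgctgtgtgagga
Rrm2: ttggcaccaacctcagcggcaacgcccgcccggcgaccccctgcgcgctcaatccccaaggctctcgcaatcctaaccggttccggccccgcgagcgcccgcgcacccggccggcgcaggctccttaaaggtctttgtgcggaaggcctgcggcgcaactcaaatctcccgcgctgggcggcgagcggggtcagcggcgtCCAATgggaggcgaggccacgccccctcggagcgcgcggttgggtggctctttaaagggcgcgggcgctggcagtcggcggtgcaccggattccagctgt
Birc5: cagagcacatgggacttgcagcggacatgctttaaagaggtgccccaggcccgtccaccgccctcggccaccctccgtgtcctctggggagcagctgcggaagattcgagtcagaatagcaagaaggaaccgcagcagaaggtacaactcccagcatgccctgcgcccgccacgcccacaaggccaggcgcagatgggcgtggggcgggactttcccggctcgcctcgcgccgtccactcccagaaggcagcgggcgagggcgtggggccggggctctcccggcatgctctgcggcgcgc
The Ube2c promoter (chr2:164769679-164769978, plus strand) held 1 CHR and 6 CCAAT matches. The Cdca8 promoter (chr4:124936868-124937167, minus strand) held 1 CHR and 4 CCAAT matches, and that of Cenpf (chr1:189688037-189688336, minus strand) 1 CHR and 2. The Rrm2 promoter (chr12:24708004-24708303, plus strand) held 1 CCAAT match, and that of Birc5 (chr11:117848987-117849286, plus strand) had none of these letters in this window. A CHR match was found in 27 of 36 promoters of G2/M genes (75%, 33 of 38 genes matched), in 4 of 32 promoters of G1/S genes (12.5%, 27 of 34 genes matched) and in 19.2% of 32851 promoters. A CCAAT match was found in 77.8% of G2/M, 53.1% of G1/S and 37.4% of all promoters, and both motifs in 63.9%, 9.38% and 7.53%. An E2F match was found in 46.9% of G1/S, 13.9% of G2/M and 6.81% of all promoters. Promoters of the quiescence list (21 promoters of 11 of 14 genes) held a CHR in 14.3%, a CCAAT in 38.1% and an E2F match in 4.76%. A match is a string of letters and not a bound site.

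Genes that hold T cells at rest or let them recirculate took a smaller share of the RNA in cycling cells. Of 14 such genes, 8 were at least 2-fold lower in both libraries and none higher, with medians of -1.16 and -1.08. Il7r, the interleukin 7 receptor of resting T cells, had 136 and 113 CPM against 643 and 501 CPM, log2 ratios of -2.16 and -2.05, which were -1.46 and -1.05 with each cell given equal weight. Klf2, which drives expression of the egress receptor S1pr1, had 750.5 and 517 CPM against 1668 and 1542. S1pr1 itself had 125 and 85.3 CPM against 325 and 304. By the rule, the 10 genes furthest below other T cells were Il7r, Txnip, Slfn1, Gm2682, Bcl2, Pik3ip1, Tsc22d3, Rflnb, Ifi213 and Btg1. Bcl2, the survival factor, had log2 ratios of -1.70 and -1.87, and Txnip, which limits glucose uptake, of -1.82 and -1.88. Since cycling cells held about 3 times the UMIs of other T cells, a lower CPM here is a smaller share of the RNA and need not be fewer UMIs per cell.

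Of 18 cyclin and CDK control genes tested, 9 were at least 2-fold higher. E2f2 had log2 ratios of 2.39 and 2.07, the inhibitor Cdkn2c of 2.10 and 2.30, and the G1 kinases Cdk6 of 1.5 and 1.43 and Cdk4 of 1.20 and 1.26. The D cyclin Ccnd2 at -0.54 and -0.60 and the inhibitor Cdkn1b (p27) at -0.67 and -0.70 had negative ratios that did not reach 2-fold. Among activation genes, 9 of 18 were at least 2-fold higher, among them the costimulatory receptor Tnfrsf4 (246 and 257 CPM against 35.3 and 29.9) and the interleukin 2 receptor α chain Il2ra (99.2 and 110 CPM against 14.3 and 15). Of 16 glycolysis genes, 7 were at least 2-fold higher, and the enzymes Tpi1 (2.71 and 2.84) and Gapdh (2.05 and 2.0) stood highest. Of 16 nucleotide synthesis genes, 2 were at least 2-fold higher and the medians were 0.79 and 0.96. Of 19 interferon response genes, none was at least 2-fold higher and 1 at least 2-fold lower, with medians of -0.65 and -0.38. With each cell given equal weight these medians were -0.49 and 0.14, so the direction with butyrate turned.

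**Figure D3:**
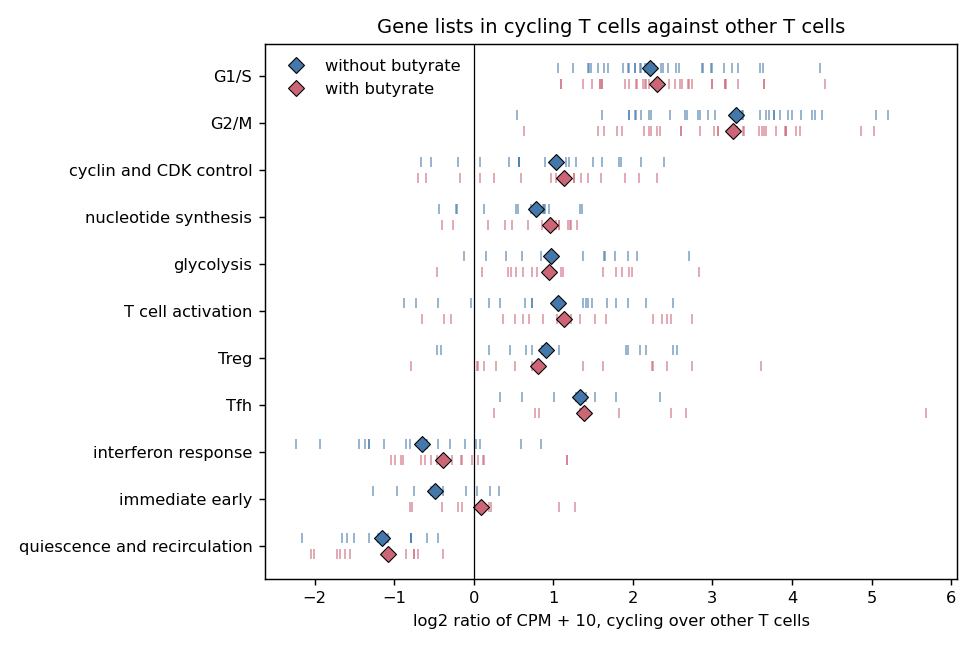
Log2 ratio of CPM (plus 10) in cycling over other T cells for the genes of 11 lists, without and with butyrate, with ticks for genes and diamonds for list medians. The G1/S and G2/M lists lie to the right (medians 2.22 and 2.30, 3.30 and 3.26), the quiescence list to the left (-1.16 and -1.08), and the medians of both libraries lie close together in most lists.

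Most Foxp3+ CD4 members had UMIs of the Treg genes Ctla4 and Ikzf2, and the values without butyrate include the cell with macrophage genes. All 21 of them without and all 16 with butyrate had a UMI of the inhibitory receptor Ctla4, at 402 and 501.5 CPM, against 455 and 335 CPM in other Foxp3+ CD4 T cells. Ikzf2 (Helios), a factor of thymus-derived Treg cells, was detected in 20 of 21 and 15 of 16, at 551 and 302.5 CPM against 767 and 721. After thinning to 2000 UMIs, Ctla4 was found in 61.9% and 68.75% of Foxp3+ CD4 members and in 0.318% and 0.277% of other B cells, whose median depth was 4360 and 4614 UMIs. Foxp3 itself took 126 and 82.8 CPM of their UMIs against 392 and 386 CPM in other Foxp3+ CD4 T cells, where a cell of lower depth must hold a larger share to be counted. Over all members, Foxp3 was found in 34 of 124 and 19 of 86 cells, and after thinning in 8.06% and 4.65%, against 2.73% and 2.77% of other T cells and 0.0529% and 0.0554% of other B cells. The CPM of Foxp3 were 44.1 (exact Poisson interval 36.3 to 53.1) and 31.9 (24.6 to 40.8) in all members, against 15.7 and 15.2 in other T cells and 0.209 and 0.308 in other B cells. The Treg list of 16 genes, Foxp3 among them, summed to 2518 and 2254 CPM in Foxp3+ and to 1547 and 1933 CPM in Foxp3- CD4 members. In other CD4 T cells it summed to 3987 and 3764 CPM in Foxp3+ and to 423 and 388 CPM in Foxp3- cells. The list thus set Foxp3+ apart from Foxp3- cells less among members than among other CD4 T cells.

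Among Foxp3- CD4 members, Il4, Il21 and Gata3 had a UMI in a larger share of cells than among other Foxp3- CD4 T cells, while the type 2 cytokines Il5 and Il13 were found in few of them. No Il5 or Il13 UMI was found in the 28 members without butyrate. With butyrate Il13 was found in 3 and Il5 in 2 of 24 members, and 1 cell described below, which is among the 24 and in all their values, held 1085 of 1114 Il13, 149 of 150 Il5 and 1168 of 1233 Il4 UMIs. Il4, the cytokine that directs B cells to IgE and is made by Tfh and type 2 cells, had a UMI in 10 of 28 members without and 9 of 24 with butyrate, against 17 of 1006 and 15 of 865 other Foxp3- CD4 T cells and 0 of 3826 and 5 of 3630 other B cells. Thinned, these shares were 10.7% and 12.5% of the members, 0.699% and 0.697% of other Foxp3- CD4 T cells and 0% and 0.111% of other B cells. Il21, the main Tfh cytokine, had a UMI in 8 of 28 and 7 of 24 members, against 8 of 1006 and 11 of 865. These Il21 shares are given without thinning and without other B cells, so they do not allow for depth or background. Pdcd1 (PD-1), highly expressed on Tfh cells, had 106 and 177 CPM in the members, against 14.6 and 14.8 CPM in other Foxp3- CD4 T cells and 0.209 and 0.0514 CPM in other B cells. Cxcr5, the receptor that leads cells into the follicle, had 35.4 and 41.9 CPM against 8.56 and 7.94 CPM in other Foxp3- CD4 T cells, but it stood at 66.1 and 73.0 CPM in other B cells and the part of B cell RNA in this level was not tested. Gata3, the master factor of type 2 cells, had a UMI in 20 of 28 and 20 of 24 members, and thinned in 28.6% and 25% against 8.28% and 9.29% of other Foxp3- CD4 T cells. The median depth of these members was 16279.5 and 20364.5 UMIs, against 5238 and 5966 UMIs in other Foxp3- CD4 T cells. No Il4 UMI was found in the 21 and 16 Foxp3+ CD4 members.

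Eomes and Cxcr3 had more CPM in CD8 members than in other CD8 T cells in both libraries, but under 2-fold on the log2(CPM + 10) scale. Nkg7 and Prf1 had fewer CPM in CD8 members in both libraries. Nkg7, a protein of cytotoxic granules, was detected in 48 of 52 and 31 of 33 of them, at 501 and 594 CPM against 589 and 634 CPM in other CD8 T cells and 2.77 and 4.32 CPM in other B cells. Klrd1 stood at 121 and 236 CPM against 201 and 177.5 CPM, and the pore-forming Prf1 (perforin) at 26.6 and 40.1 CPM against 38.5 and 44.4 CPM. The granzyme genes had few UMIs in CD8 members, 13 and 2 for Gzmb (in 4 and 2 cells), 26 and 7 for Gzma (in 5 and 3 cells) and 31 and 0 for Gzmk (in 4 and 0 cells). Their levels without butyrate were 12.8, 25.6 and 30.5 CPM, against 3.10, 10.3 and 0.964 CPM in other CD8 T cells. With butyrate their levels in CD8 members were 2.97, 10.4 and 0 CPM. The death ligand Fasl had 7 and 1 UMIs. The transcription factor Eomes, of memory CD8 cells, stood at 86.6 and 131 CPM against 48.0 and 67.4 CPM in other CD8 T cells. The chemokine receptor Cxcr3 stood at 58.0 and 62.4 CPM against 24.7 and 30.6 CPM. Thinned, Eomes was found in 11.5% and 21.2% of CD8 members, 6.66% and 10.2% of other CD8 T cells and 0.0265% and 0.111% of other B cells. Median depths were 13817.5 and 17859 UMIs in CD8 members and 6515 and 7730 UMIs in other CD8 T cells.

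The T cell receptor β variable segments were diverse. With at least 3 UMIs of a segment required, 56 of 124 members without and 34 of 86 with butyrate showed a Trbv segment, and 17 and 14 different segments were seen. Without butyrate Trbv1, Trbv2 and Trbv13-2 were the most frequent, each in 6 of 56 cells (10.7%), and with butyrate these and Trbv12-2, each in 4 of 34 (11.8%). In other T cells 25 and 24 segments were seen in 823 and 783 cells, led by Trbv2 without (12.4%) and Trbv12-2 with butyrate (12.6%). Trbv1 was not among the 6 most frequent segments there. Of CD4 members with a segment, 4 of 26 without (15.4%, interval 4.36 to 34.9%) and 4 of 16 with butyrate (25%, 7.27 to 52.4%) showed Trbv1. Of CD8 members with a segment, 4 of 25 and 4 of 17 showed Trbv12-2. These differences were not tested. No cell showed 2 different segments at this cut. Expression of a V segment does not identify a clone.

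Between the libraries, 26 of 6888 genes (0.377%) were at least 2-fold higher and 30 (0.436%) at least 2-fold lower with butyrate in the summed cycling T cells, and the median log2 ratio of all genes tested was 0.01. Most of these genes came from single cells. In each of the 26 higher genes a single cell held over 25% of the UMIs of the library with butyrate, and in 17 of them over 50%. Of the 30 lower genes, 26 had over 25% and 22 over 50% of the UMIs of the library without butyrate in a single cell. The 4 exceptions were Lgals3, Mef2c, Tubb2a and Cd24a, which are named because of their values. Of the 7 B cell markers outside the rule, 4 could be tested between the libraries. All 4 were lower with butyrate (median -0.98), 2 of them past 2-fold, and Ebf1 is among the 30 lower genes. The part of B cell RNA in the lower genes was not tested.

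A pair of cells carried most of these genes, and they are described because of their values. The first, of the library without butyrate, held 49260 UMIs of 6900 genes, 51 Mki67 and 68 Top2a UMIs, and 4 UMIs each of Cd3e, Cd3d and Cd3g. With 4 Cd4 UMIs, no Cd8 UMI and 1 Foxp3 UMI it counted among the 21 Foxp3+ CD4 members. It held 74 of 75 Lyz2 UMIs, all 62 of C1qa and 430 of 431 of Saa3, together with 355 Retnla and 203 Fn1 UMIs. Lyz2 (lysozyme) and C1qa (complement) are macrophage genes. This cell held the most UMIs of 19 of the 30 lower genes.

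The second, of the library with butyrate, held 75016 UMIs of 6664 genes and 32 Cd3e, 76 Cd3d and 116 Cd3g UMIs. It held 33 Cd4 and 10 Cd8b1 UMIs and no Foxp3 UMI. With 1 Mki67 and 2 Top2a UMIs it passed the cut, but its cell cycle list level of 11.7 per 10000 lay below the 99th percentile of other T cells (32.6). It held 1168 of 1236 Il4 UMIs, 1085 of 1123 of Il13, 149 of 155 of Il5 and 59 of 251 of Gata3, all genes of type 2 cells. It also held 442 of 486 Ifng UMIs, 193 of 229 of Il10, 1710 of 1749 of Ccl3 and 1701 of 1748 of Ccl4. This cell held the most UMIs of 18 of the 26 higher genes. Neither cell ranked among the likeliest doublets.

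Counted by cells, most of these cytokines were found in few members of either library. Il4 was detected in 14 of 124 and 10 of 86 members, with medians of 2 and 3 UMIs in cells that had it. Il5 was detected in 2 and 3 members, Il10 in 10 and 8, Ifng in 15 and 9, and Il13 in 1 and 5. Of the cytotoxic genes, Gzma had 61 and 278 UMIs in 11 and 5 cells, and 270 of the 278 were in 1 further cell. Without the pair of cells 12 of 6748 genes were at least 2-fold higher and 14 lower, of which 9 and 11 were among the 26 and 30.

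**Figure D4:**
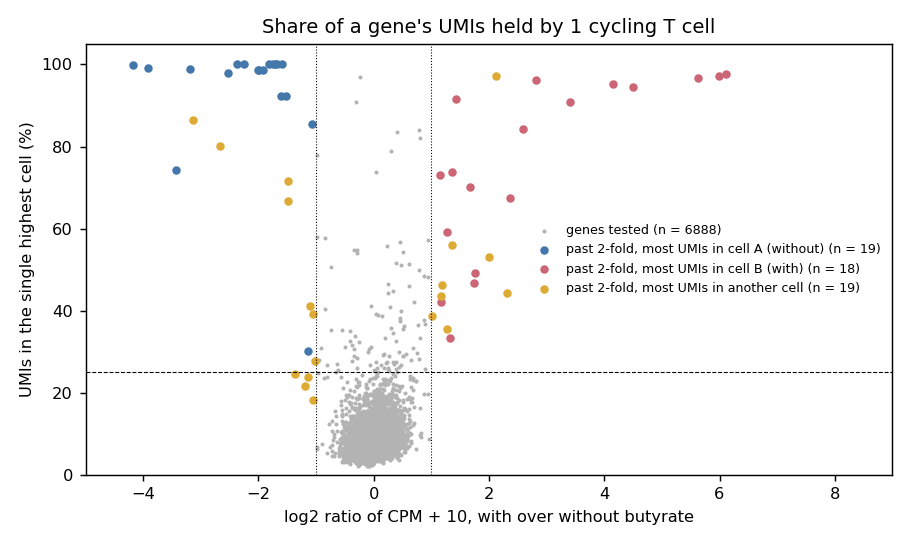
For each gene tested, the log2 ratio of CPM (plus 10) with over without butyrate in cycling T cells (horizontal) against the percent of its UMIs held by the single cell with most of them in the library where it was higher (vertical), with the genes led by the first cell of the library without butyrate (cell A), by the cytokine-rich cell of the library with butyrate (cell B) and by other cells in colour. Beyond the dotted lines at -1 and 1, all genes on the right and 26 of 30 on the left lie above the dashed line at 25%.

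Genes were named where at least 100 CPM were reached and no cell held over 25% of the UMIs in either library. Of the 10 lowest with butyrate, Lgals3 (galectin-3) stood first with 212 CPM without and 87.8 CPM with butyrate, a log2 ratio of -1.19, in 33 of 124 and 21 of 86 cells. The interval of the ratio of its raw UMIs, which has no added 10, was -1.53 to -1.03. Ikzf2 had 292 and 172.5 CPM, a log2 ratio of -0.73, and was lower in CD4 (-0.67) and CD8 members (-0.52). Within Foxp3+ CD4 members it had 551 and 302.5 CPM. Hist1h2ap had 1235 and 740 CPM (-0.73), and Ly6a, the stem cell antigen Sca-1 that interferon also induces, had 390 and 236 CPM (-0.70). Of the others, Dapl1 stood at -0.65, Klf2 at -0.53, the nucleotide phosphohydrolase Samhd1 at -0.52, the interferon-inducible Mndal at -0.52 and the arginine synthesis enzyme Ass1 at -0.52. Of these 10 genes, Lgals3 alone was past 2-fold.

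Of the 10 highest, the immediate early factor Fosb had 48.0 CPM without and 102 CPM with butyrate, a log2 ratio of 0.95, and was higher in CD4 (0.62) and CD8 members (1.80). Klrd1 (CD94), a receptor of NK cells and CD8 T cells, had 54.7 and 115 CPM (0.95), and 0.91 within CD8 members, but 0.54 over all members without the likeliest doublets. In other CD8 T cells Klrd1 stood at 201 CPM without and 177.5 CPM with butyrate. Gata3 had 74.0 and 125 CPM (0.69), of which the cytokine-rich cell held 59 of 251 UMIs, and without the pair of cells its log2 ratio was 0.36. Smco4 stood at 0.65 (0.35 in members with list signal and 0.41 in those with 3 or more UMIs), the mRNA decay factor Zfp36 at 0.61, the calcium-binding S100a4 at 0.58, the proteasome subunit Psmd7 and the purine salvage enzyme Aprt at 0.51 each, Tbc1d4 at 0.44 and the NF-κB inhibitor Nfkbia at 0.42. S100a4 had 8 UMIs in the 52 CD8 members without and 71 in the 33 with butyrate. With each cell given equal weight Tbc1d4 stood at -0.04, so its direction rests on deep cells. The same weighting gave smaller log2 ratios for Nfkbia (0.10), Psmd7 (0.24), Gata3 (0.28), S100a4 (0.36), Mndal (-0.20), Samhd1 (-0.23), Klf2 (-0.28), Dapl1 (-0.32) and Ly6a (-0.39).

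Cell cycle genes differed little between the libraries. The G1/S list had a median log2 ratio of 0.12, with 26 of 34 genes higher with butyrate, and the G2/M list of -0.10, with 26 of 36 lower. Of the 34 and 36 genes, 0 reached 2-fold. With 3 or more Mki67 and Top2a UMIs the G1/S median was 0.016. Among the highest of the replication genes were the loading factor Cdc6 (0.24) and the ubiquitin ligase subunit Dtl (0.21). Lowest of the mitotic genes with over 100 CPM were the spindle proteins Nusap1 (193 and 149 CPM, -0.36) and Cenpe (142 and 109 CPM, -0.35) and the cyclin Ccnb2 (153 and 118 CPM, -0.35), while the kinase Plk1 stood at 0.36. The small differences went in opposite directions in CD4 and CD8 members for G2/M genes. In CD4 members 32 of 35 G2/M genes were lower with butyrate (median -0.40), and in CD8 members 27 of 28 were higher (median 0.31). With only members of 3 or more Mki67 and Top2a UMIs, a restriction within subsets that was added once the data had been seen, 33 of 35 were lower in CD4 (median -0.43) and 19 of 27 higher in CD8 members (median 0.16). The G1/S list was higher in both, with medians of 0.12 in CD4 and 0.17 in CD8 members, and under the same restriction of 0.084 in CD4 (24 of 34 higher) and 0.087 in CD8 members (17 of 29). In members with neither coreceptor ahead 14 of 15 G1/S genes were lower with butyrate (median -0.70). The difference between CD4 and CD8 members was not tested.

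Most interferon response genes had a log2 ratio below 0 with butyrate, 9 of 12 tested, with a median of -0.50, and none was past 2-fold. In the list counts given here, higher and lower mean the sign of the ratio alone, and of all 6888 genes tested 52.7% were higher and 47.3% lower by sign. Ifi27l2a, the most abundant, had 1951 and 1174 CPM (-0.73), Xaf1 had 43.3 and 16.9 CPM (-0.98), the ubiquitin-like Isg15 had 73.6 and 47.4 CPM (-0.54), and the tethering factor Bst2 had 193 and 145 CPM (-0.39). The exceptions were the chemokine Cxcl10 at 0.61, Ifit1 at 0.26 and Ifit2 at 0.17, with under 40 UMIs in each library. Among CD4 members 7 of 7 genes were lower (median -0.85), and among CD8 members 5 of 8 (median -0.27). With 3 or more Mki67 and Top2a UMIs, 7 of 7 were lower in CD4 members (median -0.72) but 2 of 5 in CD8 members (median 0.06), so the direction in CD8 members turned. The list was lower outside cycling T cells too. In other T cells 19 of 20 interferon genes were lower (median -0.74), and in cycling B cells 7 of 9 (median -0.86). Isg15 had 172 and 64.9 CPM in other T cells.

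Nucleotide synthesis genes had a log2 ratio above 0 with butyrate in 14 of 16 cases, with a median of 0.25 (0.10 in other T cells), and none was past 2-fold. In CD4 members 13 of 14 were above 0 (median 0.31), in CD8 members 7 of 12 (median 0.04) and in cycling B cells 6 of 15 (median -0.04). The purine synthesis enzyme Gart had 37.8 and 60.3 CPM (0.56), Adsl of the same pathway 42.5 and 60.8 CPM (0.43), the guanylate synthase Gmps 85.5 and 114 CPM (0.37) and the pyrimidine enzyme Dhodh 9.45 and 17.5 CPM (0.50). Quiescence and recirculation genes were lower in 10 of 13 cases (median -0.22), among them S1pr1 (125 and 85.3 CPM, -0.50) and the factor Lef1 (-0.49), while the node-homing receptor Ccr7 stood at 0.16. In CD4 members 11 of 13 of these genes were lower (median -0.39), and in CD8 members 7 of 13 (median -0.03). With 3 or more Mki67 and Top2a UMIs the CD4 median was -0.47, and 9 of 13 were higher in CD8 members (median 0.32). Weighting each cell equally gave a median of -0.07 over all members. Activation genes were higher in 12 of 18 cases (median 0.12), with Pdcd1 at 44.9 and 74.3 CPM (0.62), but the median was -0.08 in members with the list signal. Glycolysis genes stood at a median of 0.02 with 8 of 15 higher, and cyclin and CDK control genes at -0.02 with 8 of 18 higher. Immediate early genes were higher in 7 of 10 cases in cycling T cells (median 0.23) and lower in 9 of 11 in other T cells (median -0.16). In CD8 members 8 of 9 were higher (median 0.43), and in CD4 members 5 of 9 (median 0.06). Heat shock genes were lower in 7 of 9 cases with a median of -0.05, with Hspa8 at 2111 and 1896 CPM (-0.15).

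Lists of T cell lineage genes rested in part on the pair of cells. The Treg list stood at -0.18 with 8 of 12 genes lower, among them Foxp3 (-0.37), the folate receptor Izumo1r (-0.33) and the inhibitory receptor Klrg1 (-0.48), and Il10 was its only gene 2-fold higher. In CD4 members its median was -0.09, with 7 of 11 genes lower, and in CD8 members -0.35, with 6 of 6. In members with neither coreceptor ahead it was -1.70, with 8 of 8 lower. The Tfh list stood at 0.21 with 6 of 9 higher. The list of type 1, 2 and 17 genes stood at 0.69 with 8 of 9 higher, and its 4 genes past 2-fold were Il4, Il5, Il13 and Ifng, each with over 90% of its UMIs in the cytokine-rich cell. The cytotoxic list stood at 0.70 with 11 of 12 higher, and its 5 genes past 2-fold (Gzma, Ccl4, Ccl5, Xcl1 and Klrk1) each had over 25% of their UMIs with butyrate in 1 cell. In CD8 members all 7 cytotoxic genes tested were higher (median 0.54). Gzma, Gzmb, Gzmk and Fasl had too few UMIs there to be tested, and their CPM were lower with butyrate. Gzma had 25.6 and 10.4 CPM, Gzmb 12.8 and 2.97, Gzmk 30.5 and 0 and Fasl 6.89 and 1.49. Of the γδ T cell list only Trdc could be tested, at 0.45.

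**Figure D5:**
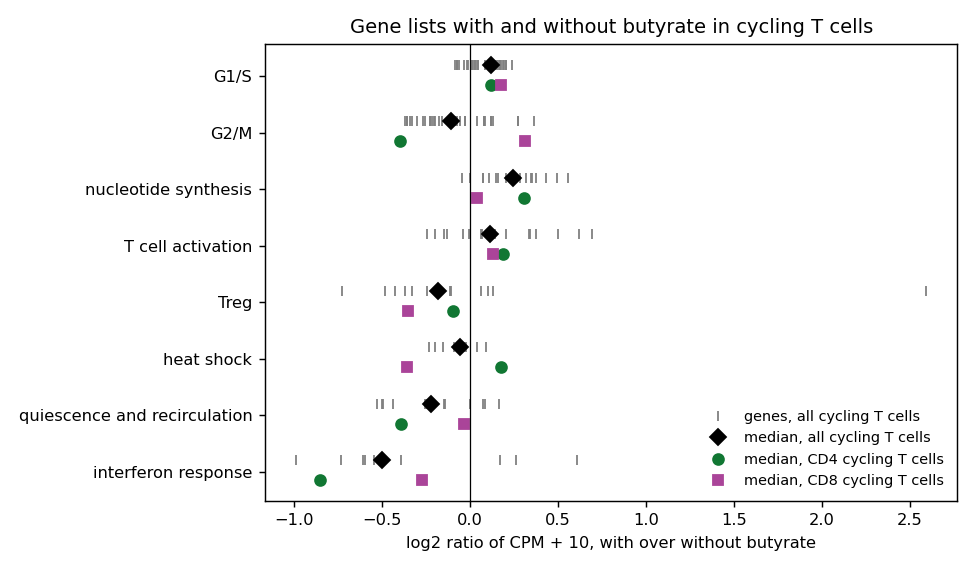
Log2 ratio of CPM (plus 10) with over without butyrate in cycling T cells for the genes of 8 lists (grey ticks), with list medians over all members (black diamonds), over CD4 members (green circles) and over CD8 members (purple squares). The interferon response medians lie left of 0 (-0.50, -0.85 and -0.27), and for G2/M genes the CD4 median (-0.40) and the CD8 median (0.31) lie on opposite sides of 0.

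Butyrate acts on cells through the receptors encoded by Ffar2, Ffar3 and Hcar2 and, inside cells, by inhibiting class I histone deacetylases. Ffar2 UMIs were found in 1 of 124 and 3 of 86 members and Ffar3 UMIs in 0 and 1. No UMI of Hcar2 or of the transporter Slc5a8 was found in either library. A count of 0 allows up to 3 counts. The monocarboxylate transporter Slc16a1 was detected in 26 and 27 members, at 20.1 and 26.9 CPM (log2 ratio 0.30). Of the deacetylases, Hdac1 had 144.5 and 121 CPM (-0.24), Hdac2 46.5 and 45.9 CPM (-0.02) and Hdac3 31.5 and 42.9 CPM (0.35), and Hdac8 had too few UMIs to be compared. These are RNA levels and say nothing of the activity of the proteins.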

How the data were processed

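Each library was made from pooled MedLN cells of 4 mice, with 1 library for each condition. The authors deposited raw UMI counts per gene and cell, without normalization, for 31053 genes. The submitters' processing notes name Cell Ranger 6.0.1 and mm10, and how reads were assigned to genes beyond that is not given in the sources used here. The study's methods name removal of cells with over 10% mitochondrial UMIs, under 200 genes or called as doublets. The deposited counts still held cells past the mitochondrial or gene limit. Which cells the study called doublets is not given. Here 186 and 327 cells were removed by these first limits. Doublets were ranked by Scrublet (scanpy 1.11.5, 0.8% per 1000 cells, 721 and 592 cells), kept, and removed only as an alternative. The members and gene lists were chosen with earlier results of these data known.

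UMIs were summed over the cells of a class and scaled to CPM. Ratios are log2 of (CPM + 10), where the compared sums together held 50 UMIs or more, and single genes were counted as higher or lower from 2-fold on, those of lists between libraries by the sign of the ratio. T cell receptor and immunoglobulin segments were left out of the gene counts with and without butyrate. Intervals at 95% are exact binomial (Clopper-Pearson) for shares, exact Poisson for sums and exact conditional for ratios of raw counts. They cover counting error only. Thinning drew 2000 UMIs from each cell, and 104 and 60 shallower cells of all kept cells were left out. The genes named are those of the lists and the 10 highest and 10 lowest of each comparison among genes with at least 100 CPM in a sum, with at most 25% of the cycling T cell UMIs in 1 cell of either library, and without receptor, immunoglobulin, mitochondrial, ribosomal and gate genes. Other choices after the values were seen are named as such. Some genes that the rule names are not reported here. Gene identifiers were looked up in GENCODE M21 and promoters in RefSeq. Simulated data with known changes were used to test the step that makes ratios. They were drawn as sums per gene and not as cells, so they do not cover genes whose UMIs lie mostly in 1 cell. Alternatives were doublet removal, at most 5% mitochondrial UMIs, at least 500 genes, no Cd79 UMI, 1 or 3 gate UMIs, other gate genes, thinning, a pseudocount of 1, at least 200 or 1 UMIs, median of ratios, CPM without ribosomal, mitochondrial and immunoglobulin genes, and equal weight per cell. Members with list signal, leaving out the pair of cells or 1 of them, and 3 gate UMIs within CD4 and within CD8 members were added after the data were seen. Python 3.11.15, numpy 2.4.6, pandas 2.3.3, scipy 1.17.1 and matplotlib 3.10.9 were used.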

Additional observations from a re-analysis of the deposited data

Results flagged for a closer look

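Some medians and genes had log2 ratios of opposite sign with butyrate in CD4 and CD8 cycling T cells. Some of these ratios were very small, such as those of Samhd1 and Psmd7 in CD8 members. With 1 library for each condition the difference between CD4 and CD8 members was not tested. The G2/M list stood at a median log2 ratio of -0.40 in CD4 and 0.31 in CD8 members. The cyclin and CDK control list stood at -0.046 and 0.14, the glycolysis list at 0.032 and -0.10, and the heat shock list at 0.17 and -0.36. Samhd1 stood at -0.61 in CD4 and 0.016 in CD8 members, Gata3 at 0.84 and -0.14, and Psmd7 at 0.66 and -0.029. CD4 and CD8 members differed in depth (medians of 21530 and 13817.5 UMIs without and 22251 and 17859 with butyrate) and in the share of cells with exactly 2 gate UMIs (20.4% and 55.8% without, 12.5% and 39.4% with butyrate). With only members of 3 or more gate UMIs the G2/M list stood at -0.43 in CD4 and 0.16 in CD8 members. The part of depth in these values was not tested. The quiescence and recirculation list stood at -0.39 in CD4 and -0.03 in CD8 members, and at -0.47 and 0.32 with 3 or more gate UMIs. The cytokine-rich cell, which held 59 Gata3 UMIs, is a CD4 member.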

How the results depend on the processing

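Of 1005 values of 98 results under the alternatives, 594 stayed within the counting interval or near the main count, 411 moved and 0 called ratios reversed. The log2 ratio of the share of T cells in the gate ranged from -0.59 to -0.11. Its interval excluded 0 with at most 5% mitochondrial UMIs (-0.48, interval -0.92 to -0.06) and without any Cd79 UMI (-0.59, interval -1.20 to -0.01). With at most 5% mitochondrial UMIs the share of CD8 T cells stood at -0.88 (interval -1.61 to -0.17). With thinning, which left 35 and 25 cells, the log2 ratios of shares within cycling T cells were -0.65 for CD4, 1.49 for CD8 and 1.14 for Foxp3+ among CD4. Of genes 2-fold or more higher there were 53 with a pseudocount of 1, 12 with at least 200 UMIs, 12 without the pair of cells and 8 with list signal. Of genes lower there were 58, 7, 14 and 36 under the same settings, so the split of 26 higher and 30 lower became 8 and 36 in members with list signal. The causes were not tested, except that fewer genes are tested at 200 UMIs (2969 of 6888). Medians near 0 changed sign: the cyclin and CDK control list ranged from -0.11 to 0.06, the glycolysis list from -0.06 to 0.03 and the heat shock list from -0.12 to 0.06. The activation list ranged from -0.08 with list signal to 0.18, the quiescence list from -0.25 to -0.07, and the interferon list ranged from -0.75 to -0.38 and the nucleotide list from 0.20 to 0.33, while the G2/M list ranged from -0.19 to -0.01 and the G1/S list from 0.016 to 0.14. All 58 ratios of cycling over other T cells (20 of genes that were higher, 20 of genes that were lower and 18 list medians) moved under at least 1 of 10 alternatives. All 58 were larger in size with a pseudocount of 1 and 57 were smaller with equal weight per cell. Those of the higher genes ranged from 3.78 to 8.02 and those of the lower genes from -3.16 to -0.83, and 1 of 58 turned, the interferon median with butyrate (0.14 with equal weight per cell). Gata3 stood at 0.28 with equal weight per cell and Klrd1 at 0.54 without doublets, S100a4 ranged from 0.34 to 0.60, Smco4 from 0.35 to 0.70, Dapl1 from -0.9985 to -0.32 and Ly6a from -0.91 to -0.39. No paired analysis was possible because each condition has 1 library. Depth limits the gate, since a cell of low RNA content rarely shows 2 UMIs of these genes, and 52 CD8 members or fewer stand behind the values of that subset.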

Other observations

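Members with neither coreceptor ahead were mostly cells without a Cd4 or Cd8 UMI, 21 of 23 without and 11 of 13 with butyrate, and their median depth was 14480 and 7866 UMIs. Of these 23 and 13 cells, 10 and 2 had a Foxp3 UMI. Both a Cd4 and a Cd8 UMI were found in 17 of 124 and 13 of 86 members. Only Top2a was found in 37 and 24 members and only Mki67 in 12 and 9.

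Among genes chosen after their values were seen, Pdcd1 had a UMI in 6 of 21 Foxp3+ CD4 members without and 12 of 16 with butyrate, at 15.8 and 46.2 CPM, and in none of them after thinning in either library. Bcl6, the main Tfh factor, had a UMI in 9 of 28 and 2 of 24 Foxp3- CD4 members, and it stood at 25.3 and 13.3 CPM in them and at 19.9 and 25.6 CPM in other B cells. Klrg1 had a UMI in 8 of 21 and 8 of 16 Foxp3+ CD4 members, at 75.4 and 43.0 CPM against 53.8 and 94.1 CPM in other Foxp3+ CD4 T cells. Il17a had 0 UMIs in the 124 members without and 9 UMIs in 4 of the 86 members with butyrate.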
